A study of Homo sapiens with 8 samples.

Results

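A set of 10 genes that mark pluripotent stem cells, early embryos and the germ line was followed across the whole experiment: *POU5F1*, *NANOG*, *UTF1*, *LIN28A*, *LIN28B*, *DPPA2*, *DPPA3*, *DPPA4*, *DPPA5* and *ZFP42*. They were chosen by name, and every array probe that is not a control and carries one of these 10 gene names was taken. This gave 11 probes, 2 for *POU5F1* and 1 for each of the other genes, of the 50599 distinct probes and 36337 gene names on the array. All 11 are accounted for here, and 9 probes of 8 genes entered the tests.

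The cells were HCT116, a cell line from a human colorectal carcinoma, as stable single clones that had all been transfected and selected with G418. CONT1 and CONT2 carried the pcDNA6.2-GW/EmGFP-miR-neg plasmid, and TET1-KD1 and TET1-KD2 each carried a different artificial miRNA against *TET1*, the gene for an enzyme that oxidizes 5-methylcytosine. Each of the 4 clones was measured once untreated and once after 1 µM 5-aza-dC, a cytosine analog that traps DNA methyltransferases, for 72 h, with drug and medium renewed daily. The 8 one-color arrays thus form 4 conditions of 2 arrays, control and *TET1* knockdown, untreated and treated, and the 2 arrays of a condition are 2 clones. The p-values rest on the spread between the 2 clones of a condition, pooled over the 4 conditions and drawn by limma toward that of the other probes. In the knockdown clones this spread also holds the difference between the 2 miRNAs. The array titles, which were followed, give every clone with and without drug, whereas a separate treatment field gives mock for all arrays of control clones and 5-aza-dC for all arrays of knockdown clones. Both arrays of treated control clones lay on a second slide and the other 6 on the first. Slide and treatment therefore cannot be told apart in the control clones, while both comparisons that use only untreated clones or only knockdown clones lie within 1 slide.

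In pluripotent cells, POU5F1 (OCT4) and NANOG are transcription factors that hold the network of self-renewal together, and UTF1 is a chromatin-associated protein of the same cells. LIN28A and LIN28B bind RNA and block the maturation of the let-7 miRNAs. DPPA2 and DPPA4 are paired DNA-binding proteins with a SAP domain, DPPA3 (Stella) is an oocyte factor that restrains the maintenance of DNA methylation, DPPA5 is a KH-domain RNA-binding protein, and ZFP42 (REX1) is a zinc finger protein related to YY1. Most of these genes are silent in adult epithelium, and DNA methylation at their promoters is one of the ways in which they are kept silent.

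Because the drug acts on methylated CpG sites, the bases just upstream of the transcription starts are shown first. They are the 250 bases before each start in RefSeq (GRCh38.p14), 5′ to 3′ on the gene's own strand, with each CpG in capitals. RefSeq entries were at hand for 8 of the 10 genes, with 2 starts for *LIN28B* and none for *POU5F1* and *LIN28A*. The arrays measured RNA only, so the methylation of these CpGs in the clones was not measured here. The 5 genes that were above background only when treated are shown with *UTF1* and *NANOG*, whose signals did not pass the test for a response or did not rise above background.
*DPPA2*, chr3:109316518-109316767, minus strand: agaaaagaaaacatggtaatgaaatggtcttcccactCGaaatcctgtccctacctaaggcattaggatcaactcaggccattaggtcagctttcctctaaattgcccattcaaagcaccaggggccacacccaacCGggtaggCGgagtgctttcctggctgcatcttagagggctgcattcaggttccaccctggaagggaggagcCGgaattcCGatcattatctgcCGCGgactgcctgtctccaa
*DPPA4*, chr3:109337547-109337796, minus strand: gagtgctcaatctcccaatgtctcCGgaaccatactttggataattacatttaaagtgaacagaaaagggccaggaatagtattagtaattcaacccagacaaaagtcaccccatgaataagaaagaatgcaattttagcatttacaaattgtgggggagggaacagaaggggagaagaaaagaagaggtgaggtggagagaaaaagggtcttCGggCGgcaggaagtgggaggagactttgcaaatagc
*DPPA5*, chr6:73354277-73354526, minus strand: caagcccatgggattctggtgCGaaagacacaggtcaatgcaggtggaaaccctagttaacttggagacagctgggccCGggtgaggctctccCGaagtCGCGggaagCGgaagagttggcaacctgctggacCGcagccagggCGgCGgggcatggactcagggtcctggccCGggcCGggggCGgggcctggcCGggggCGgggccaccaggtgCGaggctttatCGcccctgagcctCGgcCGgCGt
*ZFP42*, chr4:187995521-187995770, plus strand: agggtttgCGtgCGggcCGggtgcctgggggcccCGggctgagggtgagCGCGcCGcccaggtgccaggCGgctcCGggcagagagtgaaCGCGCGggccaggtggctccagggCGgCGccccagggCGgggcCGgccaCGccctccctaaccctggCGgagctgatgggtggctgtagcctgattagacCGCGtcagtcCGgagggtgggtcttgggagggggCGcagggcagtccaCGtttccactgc
*LIN28B* upstream start, chr6:104940715-104940964, plus strand: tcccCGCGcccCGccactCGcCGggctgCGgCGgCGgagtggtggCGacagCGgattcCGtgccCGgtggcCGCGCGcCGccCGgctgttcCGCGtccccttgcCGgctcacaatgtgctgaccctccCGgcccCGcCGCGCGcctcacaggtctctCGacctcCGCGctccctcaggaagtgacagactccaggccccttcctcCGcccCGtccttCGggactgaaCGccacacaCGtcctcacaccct
*LIN28B* downstream start, chr6:104956857-104957106, plus strand: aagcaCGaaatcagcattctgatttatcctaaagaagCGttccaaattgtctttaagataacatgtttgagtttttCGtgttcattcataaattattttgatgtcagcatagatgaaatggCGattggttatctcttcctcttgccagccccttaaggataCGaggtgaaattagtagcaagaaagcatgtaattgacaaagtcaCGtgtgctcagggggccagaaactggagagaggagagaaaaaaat
*UTF1*, chr10:133229967-133230216, plus strand: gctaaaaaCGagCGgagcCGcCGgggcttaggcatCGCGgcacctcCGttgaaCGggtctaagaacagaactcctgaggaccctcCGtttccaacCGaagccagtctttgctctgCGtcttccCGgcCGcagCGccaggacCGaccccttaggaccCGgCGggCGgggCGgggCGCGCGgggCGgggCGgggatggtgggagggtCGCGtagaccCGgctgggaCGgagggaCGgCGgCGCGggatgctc
*NANOG*, chr12:7789152-7789401, plus strand: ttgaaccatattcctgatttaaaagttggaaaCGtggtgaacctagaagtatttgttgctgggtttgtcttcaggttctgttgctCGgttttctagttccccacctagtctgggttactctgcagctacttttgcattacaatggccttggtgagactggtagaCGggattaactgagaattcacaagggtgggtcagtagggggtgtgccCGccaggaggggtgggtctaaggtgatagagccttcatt

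These sequences differ widely in CpG content. *DPPA2* and *DPPA4*, on the minus strand of the same stretch of chromosome 3, had 7 and 3 CpGs, fewer than the median of 11 over all 35116 RefSeq promoters of this length (quartiles 3 and 23). *DPPA5* had 19 CpGs and *ZFP42* had 23, so that 65.4% and 74.2% of all promoters had fewer. *LIN28B* had 33 at its upstream start, above 91.9% of promoters, and 6 at its downstream start. *UTF1* had 32 CpGs, *NANOG* 4 and *DPPA3* 2. The GC box GGGCGG, read on both strands, was found upstream of *DPPA4*, *DPPA5*, *ZFP42*, *UTF1* and the upstream start of *LIN28B*, and in 42.6% of all promoters. An exact match to the octamer ATTTGCAT, a motif bound by POU factors, was in none of the 9 windows and in 1.63% of all promoters. Variants of this octamer were not searched for, so sites for POU factors may be present. CCAAT was found upstream of *DPPA3*, *DPPA4* and the downstream start of *LIN28B*, and in 32% of all promoters. The windows of these 5 responding genes thus ranged from 3 to 33 CpGs.

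Signals are given below as log2 of the scaled spot intensity, and a probe counted as above background where the scanner software called it well above background. Of the 11 probes, 8 were above background on none of the 4 untreated arrays. Of these 8, the probes of *LIN28B*, *DPPA2*, *DPPA4*, *DPPA5* and *ZFP42* were above background on all 4 treated arrays. Over the whole array, 1150 of 50543 probes (2.28%) had this pattern, which is 4.96% of the 23175 probes that were below background on all untreated arrays. *NANOG* and *DPPA3* were below background on all 8 arrays and were not tested. Of the 9 tested probes, 6 passed the filter through treated arrays alone, so that a difference between treated and untreated arrays was built into their selection.

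**Figure D1:**
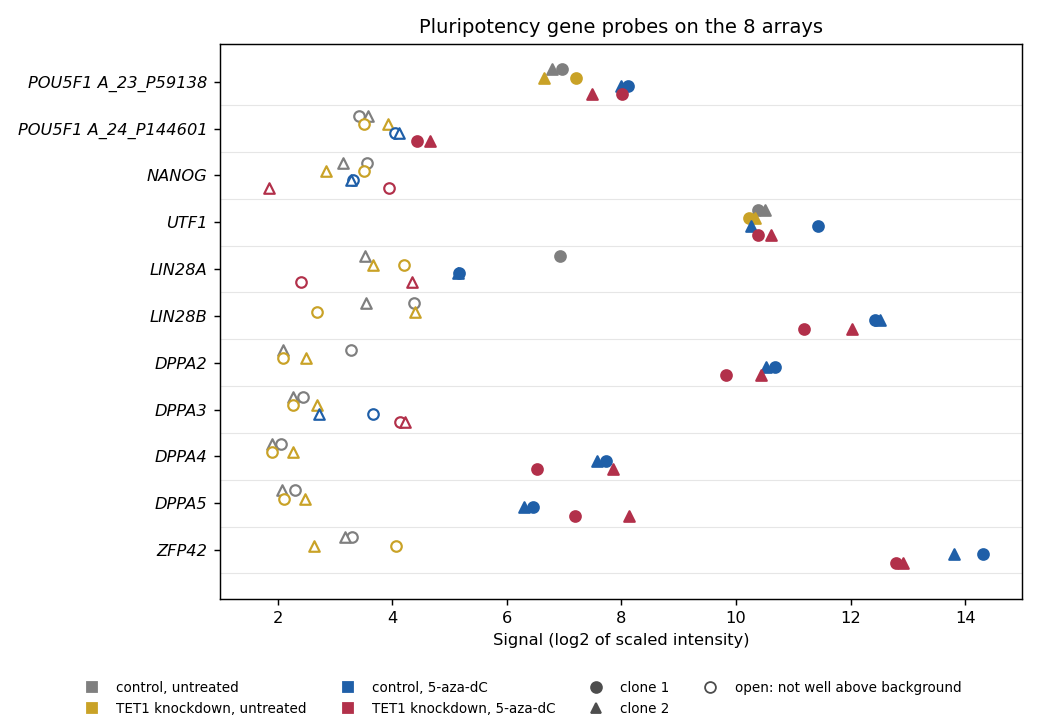
Signal of the 11 probes (rows) on each of the 8 arrays, as log2 of the scaled intensity on the horizontal axis, colored by condition. Circles are the first and triangles the second clone of a kind, and open symbols are signals not well above background. *LIN28B*, *DPPA2*, *DPPA4*, *DPPA5* and *ZFP42* are open on the 4 untreated arrays and filled at 6.30 or higher on the 4 treated arrays.

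In the control clones, 6 of the 9 tested member probes were higher after 5-aza-dC and none was lower at an adjusted p-value below 0.05 (limma, Benjamini-Hochberg over 27287 probes). Over all tested probes, 19.2% were higher and 22.6% lower in this comparison. With the second slide scaled by its spike-ins, control RNAs added to each sample, these shares were 26.5% and 14.3%, and with a trend on probe GC content subtracted 22.1% and 17.1%. In the knockdown clones, 6 member probes were higher and none was lower, against 8.91% higher and 2.9% lower over all tested probes. The latter shares were 7.48% and 4.14% with normexp, another background correction, 7.55% and 4.61% with quantile normalization, and 7.9% and 4.83% with an offset of 50 before the log2. The 6 probes called in knockdown clones were the 6 that passed the filter through treated arrays alone, and none of the other 3 was called. In control clones, all of the 6 called but the brighter *POU5F1* probe had passed in this way. Their rise was thus in part built into the selection, and the shares over all tested probes are no measure of it. As the lowest signals are bound by the background, a fold is given as a lower limit wherever both treated but neither of the untreated arrays were well above background. The limit sets the treated mean against the lowest signal called above background on each untreated array. Since whole cultures were measured, fewer cells with a transcript and less of it per cell cannot be told apart.

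*ZFP42* was above background in all treated and in no untreated clone. Its probe (chromosome 4, 188925963 to 188926022, hg19) gave untreated log2 signals of 3.29 and 3.17 in the control clones and of 4.06 and 2.64 in the knockdown clones. After 5-aza-dC the signals were 14.31 and 13.80 in the control clones and 12.80 and 12.91 in the knockdown clones. The untreated and treated arrays did not overlap, and within each treatment only the treated arrays separated the kinds of clone, with both knockdown clones below both control clones. The log2 change was 10.83 (SE 0.45, adjusted p = 4.76e-05, limma) in control clones and 9.50 (SE 0.45, adjusted p = 1e-04, limma) in knockdown clones. These correspond to at least 856-fold and at least 351-fold.

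Of the LIN28 paralogs, *LIN28B* responded and *LIN28A* did not pass the test. The *LIN28B* probe (chromosome 6, 105531071 to 105531130, hg19) had untreated log2 signals of 4.38 and 3.55 in control and 2.68 and 4.39 in knockdown clones, all below background. With drug they were 12.42 and 12.51 in control and 11.19 and 12.03 in knockdown clones. Every treated array was higher than every untreated one. The log2 change was 8.50 (SE 0.60, adjusted p = 0.000251, limma) in control and 8.08 (SE 0.60, adjusted p = 0.000493, limma) in knockdown clones, or at least 284-fold and at least 148-fold.

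The *LIN28A* probe (chromosome 1, 26755699 to 26755758, hg19) was above background in untreated CONT1, at a log2 signal of 6.92, but not in the other untreated clones, at 3.53, 4.20 and 3.66. Treated, it was above background in CONT1 and CONT2, at 5.17 and 5.14, and not in TET1-KD1 and TET1-KD2, at 2.41 and 4.35. The 2 clones of each kind moved in opposite directions, by -1.75 and 1.61 in the control clones and by -1.79 and 0.69 in the knockdown clones. The log2 changes of -0.07 and -0.55 had an SE of 1.12 (adjusted p = 0.967 and 0.797, limma), so that the 95% intervals ran from -2.78 to 2.65 and from -3.27 to 2.16. Without that array of CONT1 the change in control clones was 1.63 (adjusted p = 0.182).

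*DPPA2* and *DPPA4* lie side by side on chromosome 3 and were switched on together. The *DPPA2* probe (109012641 to 109012699, hg19) had untreated log2 signals of 3.28, 2.10, 2.10 and 2.49 in CONT1, CONT2, TET1-KD1 and TET1-KD2, and treated signals of 10.68, 10.52, 9.83 and 10.44 in the same order. The *DPPA4* probe (109045928 to 109045987, hg19) had untreated signals of 2.06, 1.90, 1.91 and 2.27, and treated signals of 7.74, 7.58, 6.52 and 7.86. For both genes the gap between untreated and treated arrays was far wider than the spread between clones, and the lowest treated signal was that of TET1-KD1. *DPPA2* rose by 7.91 (SE 0.41, adjusted p = 8.99e-05, limma) in control and 7.84 (SE 0.41, adjusted p = 0.00014, limma) in knockdown clones on the log2 scale, at least 78-fold and at least 53.1-fold. *DPPA4* rose by 5.68 (SE 0.42, adjusted p = 0.000287, limma) and 5.10 (SE 0.42, adjusted p = 0.000722, limma), at least 10.2-fold and at least 6.9-fold.

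*DPPA5* on chromosome 6 (74062907 to 74062966, hg19) had untreated log2 signals of 2.31, 2.08, 2.11 and 2.48 in CONT1, CONT2, TET1-KD1 and TET1-KD2. Its treated signals were 6.46 and 6.30 in control and 7.19 and 8.14 in knockdown clones. In contrast to *ZFP42*, *LIN28B* and *DPPA2*, both treated knockdown clones were above both treated control clones. The log2 change was 4.18 (SE 0.32, adjusted p = 0.000347, limma) in control and 5.37 (SE 0.32, adjusted p = 0.000213, limma) in knockdown clones, at least 4.18-fold and at least 9.61-fold. *DPPA3* (chromosome 12, 7869968 to 7870027, hg19) had log2 signals of 2.26 to 2.69 untreated and of 3.67 and 2.73 in control and 4.13 and 4.22 in knockdown clones after treatment, none of them well above background.

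The core factor *POU5F1* changed little. Its brighter probe (chromosome 6, 31132178 to 31132237, hg19) was above background on all 8 arrays, with untreated log2 signals of 6.97, 6.79, 7.21 and 6.65 in CONT1, CONT2, TET1-KD1 and TET1-KD2. Treated signals were 8.12, 8.0, 8.01 and 7.48, higher in each of the 4 clones. The rise of 1.18 in control clones (SE 0.26, 2.26-fold) passed the test (adjusted p = 0.0139, limma), and without any 1 of the 4 control arrays, or by the t-test of the methods, it did not (adjusted p = 0.0502 to 0.0778). In knockdown clones the change was 0.81 (SE 0.26, adjusted p = 0.102, limma), and 0.0256 with the clone as a block. The second *POU5F1* probe (31133025 to 31133368) was above background in the treated knockdown clones alone, at 4.43 and 4.66, and was 3.50 and 3.93 in them untreated. Its change there of 0.83 (SE 0.20, adjusted p = 0.0452, limma) corresponds to at least 1.11-fold, and it lost the call under 14 of its 21 alternatives. In control clones it changed by 0.58 (SE 0.20, adjusted p = 0.0552), and adjusted p was 0.0262 with the block. RefSeq lists 7 genes or pseudogenes named after *POU5F1*, whose transcripts these probes may also bind. By name it also lists 3 for *LIN28A*, 4 for *DPPA2*, 12 for *DPPA3*, 3 for *DPPA4* and 4 for *DPPA5*. For *LIN28B*, *UTF1* and *ZFP42* it lists 0. Binding of the members' probes to such copies was not checked by sequence.

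*NANOG* (chromosome 12, 7948487 to 7948546, hg19) remained near background. Its log2 signals were 3.56, 3.15, 3.51 and 2.85 untreated and 3.32, 3.28, 3.94 and 1.85 treated in CONT1, CONT2, TET1-KD1 and TET1-KD2, and untreated and treated arrays overlapped. RefSeq lists 11 *NANOG* pseudogenes. *UTF1* (chromosome 10, 135045003 to 135045062, hg19) was by contrast already above background untreated, at 10.39, 10.50, 10.22 and 10.34. Treated signals were 11.43 in CONT1 and 10.27, 10.39 and 10.62 in CONT2, TET1-KD1 and TET1-KD2, so that CONT1 alone stood apart. The changes of 0.40 (95% interval -0.47 to 1.28, adjusted p = 0.407, limma) and 0.22 (95% interval -0.66 to 1.09, adjusted p = 0.75, limma) did not pass the test. Without treated CONT2 the control change was 0.98 (adjusted p = 0.0221), and without treated CONT1 it was -0.18 (adjusted p = 0.534).

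**Figure D2:**
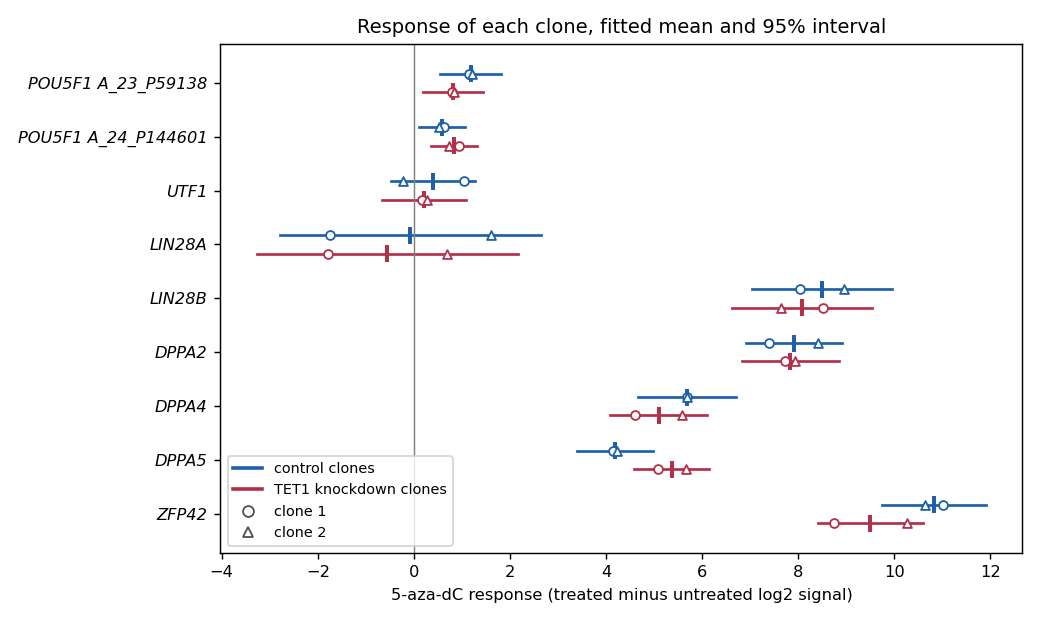
5-aza-dC response of the 9 tested probes, as treated minus untreated log2 signal. Symbols are single clones, upright bars the fitted means and horizontal lines their 95% intervals, for control and *TET1* knockdown clones. The intervals of *LIN28B*, *DPPA2*, *DPPA4*, *DPPA5* and *ZFP42* begin at 3.40 or higher, and those of *UTF1* and *LIN28A* include 0.

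*TET1* knockdown was then compared with control. The *TET1* probe with the brightest signal was lower in untreated TET1-KD1 and TET1-KD2 (8.65 and 9.41) than in CONT1 and CONT2 (9.70 and 9.75), a change of -0.69 (adjusted p = 0.61, limma). The other *TET1* probes changed by -0.98 and -2.14 (adjusted p = 0.585 and 0.37, limma). TET1-KD1 was the lower clone on all 3 *TET1* probes untreated, but on the dimmest both knockdown clones were below background. None of the 9 tested member probes was called between untreated knockdown and control clones (smallest adjusted p = 0.728, limma). At an unadjusted p below 0.05 there were 0. Of these 9 probes, 6 were below background on all 4 untreated arrays, so that for them only background signals were compared. *LIN28A* was above background on 1 untreated array, and *UTF1* and the brighter *POU5F1* probe on all 4. Over all tested probes, 0.00733% were called higher and 0.00733% lower in this comparison at an adjusted p below 0.05. The largest change in size was that of *LIN28A*, -1.29 (95% interval -4.01 to 1.43).

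After treatment, *DPPA5* was higher in knockdown than in control clones by 1.29 on the log2 scale (SE 0.32, 2.44-fold, adjusted p = 0.0418, limma). It was the 1 of 9 member probes called, while 11.9% of all tested probes were called higher and 6.91% lower. That balance turned with the scaling, to 7.9% higher and 9.69% lower with normexp and to 7.62% higher and 15.2% lower with spike-in scaling. This comparison is also one between slides, and 13 of its 18 alternatives ended the call, among them the replicate block (adjusted p = 0.0518) and scaling the second slide by its spike-ins (log2 change 0.88, adjusted p = 0.0946). *ZFP42* was lower in treated knockdown clones by -1.20 (95% interval -2.29 to -0.12, adjusted p = 0.112).

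The study asked whether *TET1* depletion alters the response to 5-aza-dC, and for these genes the difference in response was tested as an interaction. None of the 9 member probes passed (smallest adjusted p = 0.18, limma), and 1 had an unadjusted p below 0.05. At an adjusted p below 0.05, 4.02% of all tested probes were called with a positive and 1.56% with a negative difference in response, knockdown minus control. Of the calls over all probes, 72.1% were positive, 52.2% with normexp, 57.3% with an offset of 50 before the log2 and 45.7% with spike-in scaling. The log2 response in knockdown minus control clones was -0.07 for *DPPA2* (95% interval -1.49 to 1.34), -0.59 for *DPPA4* (-2.02 to 0.84) and -0.42 for *LIN28B* (-2.48 to 1.64). It was -1.32 for *ZFP42* (-2.86 to 0.21) and 1.18 for *DPPA5* (0.07 to 2.30). These intervals allow differences of 2-fold and more in either direction for *DPPA2* and *LIN28B*, so that a like response was not shown. With an offset of 50 added before the log2, *ZFP42* passed (log2 difference -1.24, adjusted p = 0.0443).

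The 2 knockdown clones also differed among themselves. Treated TET1-KD1 was below treated TET1-KD2 for *LIN28B* (11.19 and 12.03), *DPPA2* (9.83 and 10.44), *DPPA4* (6.52 and 7.86) and *DPPA5* (7.19 and 8.14), with *ZFP42* nearly level (12.80 and 12.91). Each clone has 1 array per treatment, so this was not tested.

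The probes around the members on the array, within 500 kb of each member's probe, varied from place to place. In the window around *DPPA2*, *DPPA4*, whose probe lies 33.3 kb away, was the only tested probe among 8, and the probes of *MORC1* and *TRAT1* were below background on all arrays. Around *DPPA5* lay 4 other genes that were below background on all untreated and above it on all treated arrays. *C6orf221*, now named *KHDC3L*, lies 10.9 kb from the *DPPA5* probe and *OOEP* 15.4 kb, and both encode KH-domain proteins of the oocyte's subcortical maternal complex. *C6orf221* rose from untreated signals of 1.90 to 2.28 to treated signals of 12.26 and 11.87 in control and 10.04 and 10.62 in knockdown clones, at least 215-fold and at least 61-fold. *OOEP* rose from 1.96 to 3.55 untreated to 13.43 and 13.16 in control and 11.75 and 12.72 in knockdown clones, at least 503-fold and at least 228-fold.

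Further along the same stretch, *DDX43*, a DEAD-box helicase known as a cancer-testis antigen, lies 64 kb and *MB21D1*, the DNA sensor cGAS, 75.6 kb from *DPPA5*. *DDX43* rose at least 60.5-fold in control and at least 58.1-fold in knockdown clones (adjusted p = 3e-05 and 4.35e-05, limma), and *MB21D1* at least 14.3-fold and at least 8.42-fold (adjusted p = 0.00081 and 0.00245, limma). The next gene, *MTO1* at 147.5 kb, changed by -0.16 and -0.07 (adjusted p = 0.637 and 0.898), and *KHDC1* on the other side at -43.6 kb fell by 1.65 in control clones (adjusted p = 0.00138), while its probe at -111 kb rose by 1.12 and 1.44. The 5 responding genes thus lay within 75.6 kb of each other. Inside this stretch, the probe of the transcript ENST00000445350 at 16.8 kb was above background on 3 untreated arrays. It changed by 0.08 in control and 0.84 in knockdown clones (adjusted p = 0.854 and 0.126, limma). In all, 4 of the 29 probes around *DPPA5* had the pattern of being above background only when treated, which over the whole array held for 2.28%. The same held for 5 of 29 probes around *NANOG* and 5 of 25 around *DPPA3*, neither of which rose above background. The probes of *NANOG* and *DPPA3* lie 78.5 kb apart and their windows overlap. The 5 probes, of *CD163*, *SLC2A3* and *ZNF705A*, are the same in both windows. Around the other members the pattern held for 3 of 23 probes (*ZFP42*), 2 of 50 (*UTF1*), 1 of 47 (*LIN28A*), 2 of 80 (*POU5F1*) and 0 of 14 (*LIN28B*). Around *DPPA2* and around *DPPA4* it held for 1 of 8, which is the probe of the other of this pair.

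Near *ZFP42*, *TRIML2* at 86.5 kb was above background on all arrays and rose by 3.56 in control clones (adjusted p = 0.0116), with 1.95 in knockdown clones (adjusted p = 0.153). The unnamed transcript XLOC_003832 at 155.9 kb rose at least 33.6-fold and at least 31.2-fold (adjusted p = 3.08e-05 and 5.09e-05). Around *LIN28B*, none of the other 14 probes was switched on, and *BVES* at 14 kb, *HACE1*, *POPDC3* and *PREP* were above background untreated. In control clones *BVES* rose by 1.1 and the transcript ENST00000369120 at 71.2 kb by 1.18 (adjusted p = 0.0274 and 0.00462, limma). There, 1 *PREP* probe fell by 0.77 (adjusted p = 0.00802, limma). In knockdown clones 0 of these probes were called. *NANOG* and *DPPA3* stayed below background although neighbors responded. *SLC2A14*, a sugar transporter gene whose probe lies 16.7 kb from that of *NANOG*, rose by 5.81 and 5.98 (adjusted p = 0.000183 and 0.000241), and its close paralog *SLC2A3* at 124.4 kb at least 14.3-fold and at least 15.3-fold (adjusted p = 0.00291 and 0.00792).

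**Figure D3:**
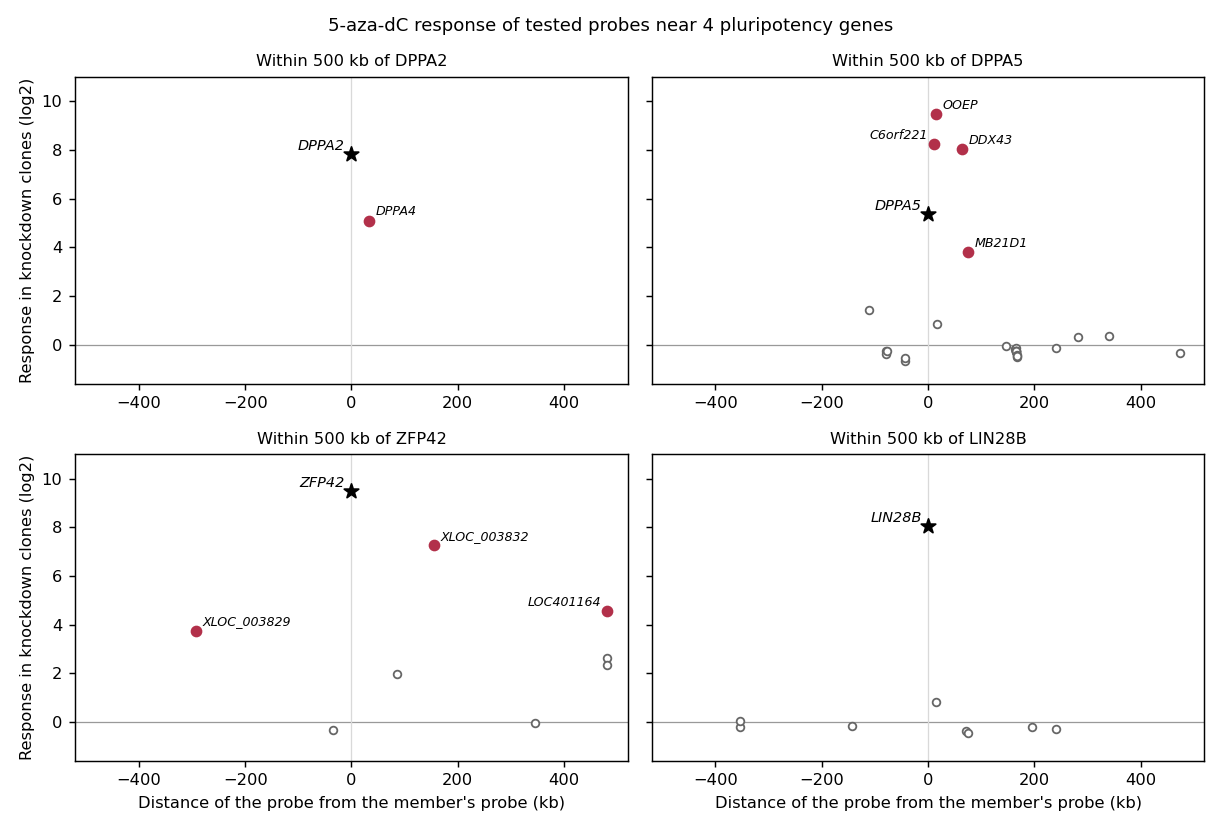
5-aza-dC response in the knockdown clones (treated minus untreated log2 signal) of tested probes within 500 kb of *DPPA2*, *DPPA5*, *ZFP42* and *LIN28B*, against the distance from the member's probe in kb. Stars are the members, filled circles probes above background only on the 4 treated arrays, and open circles other probes. Near *DPPA5*, 4 filled circles lie within 75.6 kb, and near *LIN28B* there are none.

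In addition, 5 related groups of genes were set beside the 10 genes. Among them too, a probe that passed the filter through treated arrays alone had to differ. The counts of called genes below stand beside 19.2% of all tested probes higher and 22.6% lower in control clones. In knockdown clones these shares were 8.91% and 2.9%. Of 22 other genes of the pluripotency network, 13 were tested, and 5 were higher and 1 lower in control clones, with 2 higher in knockdown clones. These were 5, 1 and 2 of its 14 tested probes. *L1TD1*, an RNA-binding protein gene derived from a LINE element, was switched on like *DPPA2* and *DPPA4*, from 2.37, 2.19, 2.19 and 2.61 to 10.26, 10.24, 9.12 and 9.93 in CONT1, CONT2, TET1-KD1 and TET1-KD2 (at least 61.1-fold and at least 35-fold). *SALL4*, a zinc finger factor expressed untreated, rose by 1.84 and 2.59 (adjusted p = 0.00602 and 0.00402). *FOXD3* and *TFCP2L1* rose in control clones, by 2.58 and 0.63, and *KLF17* fell by 1.00. Of the 2 tested *TBX3* probes, 1 rose by 1.38 in control clones, and the other changed by 0.61 (adjusted p = 0.113, limma).

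Of 15 genes of the let-7 pathway around LIN28, 13 were tested. *IGF2BP1*, an oncofetal RNA-binding protein gene repressed by let-7, rose by 2.42 in control clones and at least 10-fold in knockdown clones (adjusted p = 0.00531 and 0.00189), from 4.94, 4.47, 3.73 and 3.87 untreated to 6.98, 7.27, 7.10 and 8.35 treated. It was the 1 gene of the group called in knockdown clones. Of the 21 tested probes of the group, 3 were higher and 2 lower in control clones, and 1 was higher in knockdown clones. These shares are smaller than those over all tested probes. In control clones *ARID3A* and *ARID3B* rose by 0.70 and 1.64, and *IGF2BP2* and *DIS3L2* fell by 0.79 and 1.39 on 1 probe each. The median changes were 0.02 and -0.20, beside -0.08 and -0.07 over all tested probes.

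Of 12 genes active at zygotic genome activation, 9 were on the array and 7 were tested, of which 6 were higher and 1 lower in control and 5 higher in knockdown clones. The brighter *TRIM43* probe went from 2.31, 2.11, 2.16 and 2.54 to 12.01, 10.45, 12.37 and 11.73, at least 121-fold and at least 201-fold. *TRIM48* rose at least 4.7-fold and at least 9.69-fold (adjusted p = 0.00571 and 0.00577), and *LEUTX* at least 5.89-fold in knockdown clones (adjusted p = 0.00751). In control clones *LEUTX* passed the test (adjusted p = 0.00713), but treated CONT2 was not above background (4.72), so that no lower limit is given. *ZSCAN4* rose by 4.18 on the log2 scale in control and at least 15.2-fold in knockdown clones (adjusted p = 0.0194 and 0.0134). Its control value averages responses of 6.51 in CONT1, which was not above background untreated (2.17), and 1.86 in CONT2, which was (5.44). *TPRX1* rose by 1.49 and 1.69 (adjusted p = 0.000803 and 0.000949). *ZNF280A* rose by 1.49 in control clones. *ARGFX* fell there on a dim probe, which untreated was above background in CONT1 (4.87) and not in CONT2 (4.32), so that no lower limit is given.

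Of 9 genes of the KH-domain family and the maternal complex, 8 were on the array and tested, with 5 higher and 2 lower in control and 5 higher in knockdown clones. Besides *C6orf221* and *OOEP*, *NLRP7* rose at least 9.33-fold in control clones and by 4.35 on the log2 scale in knockdown clones (adjusted p = 0.00303 and 0.017). The latter averages 2.55 in TET1-KD1, above background untreated at 4.61, and 6.15 in TET1-KD2, which was not. *PADI6* rose at least 1.16-fold in knockdown clones (adjusted p = 0.0311). In control clones *PADI6* passed the test (adjusted p = 0.00756), but treated CONT2 was not above background (4.03), so that no lower limit is given. For 1 probe of *KHDC1* the log2 signal rose by 1.12 and 1.44, whereas 2 other *KHDC1* probes and 2 *TLE6* probes fell in control clones. The response of *C6orf221* was smaller in knockdown than in control clones by -1.85 on the log2 scale (95% interval -2.74 to -0.96, adjusted p = 0.0433, limma). Among the 14, 21, 8, 11 and 11 tested probes of the 5 groups, it was the only one for which the difference in response passed the test. The shares over all tested probes were 4.02% with a positive and 1.56% with a negative difference. Of 10 primordial germ cell genes, 9 were tested, and 8 were higher in control and 7 in knockdown clones, with none lower. *DAZL*, an RNA-binding protein of germ cells, went from 2.14, 1.95, 1.97 and 2.36 to 9.47, 9.53, 9.27 and 10.18, at least 36.3-fold and at least 40-fold. *DDX4* rose at least 8.37-fold and at least 7.03-fold and *SOX17* at least 13.6-fold and at least 7.37-fold. On the log2 scale, *DND1* rose by 2.12 and 1.61, *NANOS3* by 1.87 and 1.78 and *TFAP2C* by 1.09 and 1.32. *NANOS1* rose by 2.05 and the brighter *PRDM1* probe by 1.77 in control clones, and *NANOS2* rose at least 1.01-fold in knockdown clones.

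**Figure D4:**
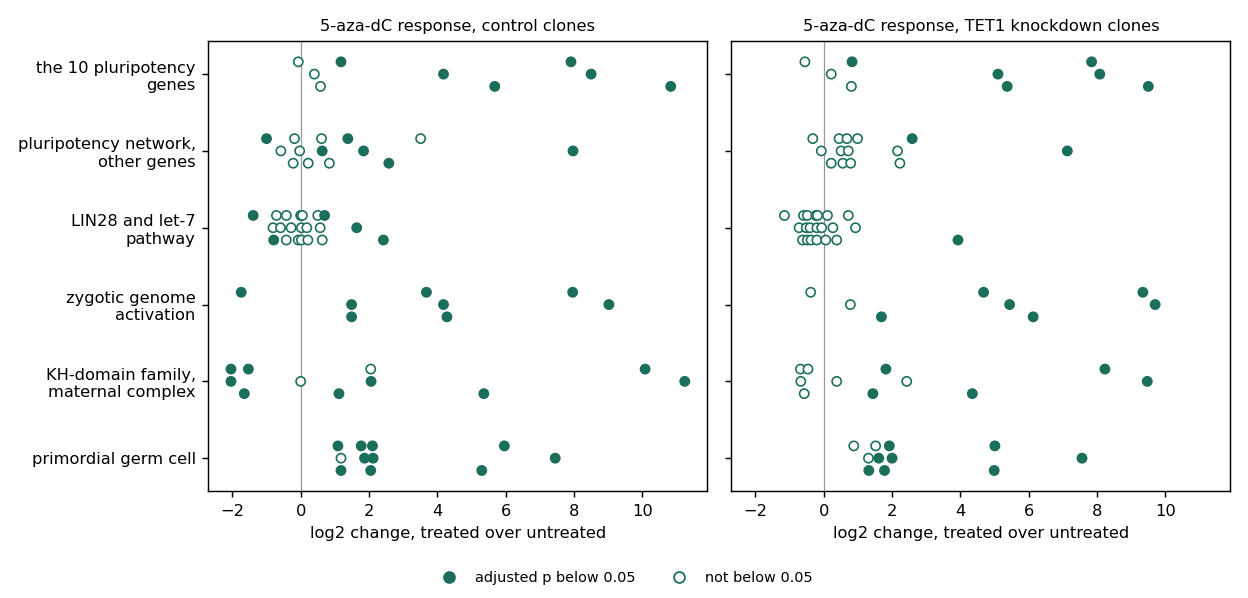
Log2 change after 5-aza-dC of every tested probe of the 10 pluripotency genes and of the 5 related groups, in control (left) and *TET1* knockdown clones (right). Filled circles have an adjusted p-value below 0.05 and open circles do not. Of the 9 probes of the 10 genes, 6 are filled in control and 6 in knockdown clones.

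Across the 8 arrays, the genes whose signal followed the responding members most closely were described by Pearson's r. The 3 closest genes were *KRBOX1*, *DMRTB1* and *PAGE2B* for *DPPA2* (r = 0.998 to 0.999), *MAGEA11*, *DLL3* and *MGAT3* for *DPPA4* (r rounding to 1), and *SSX7*, *SSX8* and *MDGA1* for *DPPA5* (r = 0.998 to 0.999). They were *ICAM4*, *ACP5* and *CT45A5* for *LIN28B* and *ACRC*, *XIST* and *KCNV2* for *ZFP42* (r = 0.998 for all 6), and *FBXL5*, *ZNF654* and *ZNF571* for *POU5F1* (r = 0.985 to 0.992). The arrays fall into an untreated and a treated cluster, so that any gene that was off in one and on in the other gives such an r.

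As to the cells themselves, 7 of 9 markers of colorectal epithelium were above background on all 8 arrays, and the summed log2 level of the list was 18.32 to 18.46 untreated and 18.33 to 18.60 treated. Of 5 fibroblast markers, *COL1A2*, *COL3A1* and *LUM* were above background on no array, *COL1A1* was above it on all 8, and *DCN* on the 4 treated arrays and on no untreated one. Their summed log2 level was 8.38 to 8.82 untreated and 9.24 to 9.74 treated. The summed level of 4 leukocyte markers was 6.78 to 7.37 untreated and 8.61 to 10.64 treated, and that of 3 endothelial markers 6.56 to 6.85 and 7.59 to 8.16. All 3 sums were higher on every treated array than on any untreated one, as for the 5 responding genes, and their part in the results was not tested. Between 46.7% and 54.9% of probes were above background on an array, and the precision of every comparison is limited by 2 arrays per condition.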

How the data were processed

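The authors deposited spot intensities of 8 one-color SurePrint G3 Human GE arrays as written by Agilent Feature Extraction 10.7.3.1 (hg19 annotation, background already subtracted, arrays not put on a common scale) and a table of the same intensities, which matched within 0.5%. The paper names GeneSpring GX and t-tests with Benjamini-Hochberg correction, and the normalization is not given in the sources used here.

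The processed intensities of the 58717 spots that are not controls were scaled so that all arrays share their geometric mean 75th percentile, values below 1 were set to 1, and log2 was taken. Flagged spots were left out, saturated ones kept (no member spot was either), and repeated probes averaged. A probe was above background where at least 0.5 of its spots were so called, and of the 50543 probes with values on all arrays, the 27287 that were above background in both clones of any condition were tested in limma 3.58.1 (R 4.3.3), in 1 fit of 4 condition means with 4 residual degrees of freedom, at an adjusted p below 0.05. Fold limits, 95% intervals and promoter counts came from the same files and from RefSeq. Probes were named by the files' gene names, and plots drawn with matplotlib 3.10.9. The fit was tested on simulated data. The members, lists and tests were chosen with earlier results of these data known. Named were all members, the genes of the related lists that passed the test, *TET1*, and the 3 genes most correlated with each responding member. Genes within 500 kb of a member's probe were named after their values were seen.

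The same clone was measured untreated and treated, so clones pair these arrays. Deviations from the condition means correlated over probes at 0.198 between a control clone's arrays and 0.476 between a knockdown clone's, and at -0.114 untreated and -0.015 treated between control and knockdown clones of the same number, which share only that number. Alternatives were other background corrections, normalizations, filters and offsets, the series value table, spike-in scaling, a trend on probe GC content, clone blocks, subsets of arrays, the t-test of the methods, and each array left out.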

Additional observations from a re-analysis of the deposited data

Results flagged for a closer look

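*C6orf221* (now *KHDC3L*), the neighbor of *DPPA5* on chromosome 6, was singled out because a test of the difference itself separated its 5-aza-dC responses in control and knockdown clones. The log2 response in knockdown minus control clones was -1.85 (SE 0.37, adjusted p = 0.0433, limma, 8 arrays), from a change of 10.08 in control and of 8.23 in knockdown clones. A negative difference passed the test for 1.56% of all tested probes. The alternatives in processing were run for the 10 genes and not for *C6orf221*. The treated signals were 12.26 and 11.87 in control and 10.04 and 10.62 in knockdown clones, and all untreated signals were not well above background. The arrays of treated controls and of treated knockdown clones lay on different slides, so slide and kind of clone cannot be told apart here. No member of the 10 genes met this criterion, and groups of 2 arrays were too small for the search for single outlying samples.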

How the results depend on the processing

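Of the 205 alternative values of the 5-aza-dC responses of *LIN28B*, *DPPA2*, *DPPA4*, *DPPA5* and *ZFP42*, 200 kept the direction and the call, and the 5 others were those of the t-test of the methods in knockdown clones, by which 0 of the 9 member probes were called after Benjamini-Hochberg adjustment and 5 at an unadjusted p below 0.05. With only probes above background on all 8 arrays, which leaves out these 5 genes by construction, 1 member probe was called in control and 0 in knockdown clones (1 at an unadjusted p below 0.05). The sizes depend on the dim end of the scale: with normexp and an offset of 50, the changes in control clones were 7.77 for *ZFP42*, 6.0 for *LIN28B*, 4.50 for *DPPA2*, 2.37 for *DPPA4* and 1.2 for *DPPA5*. Without 1 array at a time, 5 to 7 member probes were called in control clones, 5 to 6 in knockdown clones, 0 in the untreated comparison and in the difference in response, 0 to 1 between treated kinds of clone (0 without untreated CONT1 or CONT2 and without treated CONT1 or CONT2), and 5 were above background only when treated.

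The 1 call between treated kinds of clone, *DPPA5*, became 0 with spike-in scaling, no filter on dim probes, the filter for signal on all 8 arrays, the replicate block, only the 4 arrays compared or the t-test of the methods, and 2 with an offset of 50 before the log2, under which the difference in response had 1 call. With the replicate block (the clone as a block), 7 member probes were called in control and 7 in knockdown clones, and beside both *POU5F1* probes it changed no other member's call in these responses. The difference in response of *DPPA2*, -0.07 in the report, was 0.16 with quantile normalization and with the trend on GC content, with or without the block, and -0.66 to 0.51 without 1 array. Without 1 array, that of *LIN28B* was -1.28 to 0.43 (highest without untreated TET1-KD2) and that of *DPPA4* -1.26 to 0.08 (highest without treated TET1-KD1). With normexp, that of the second *POU5F1* probe was -0.25. *LIN28A* in control clones was 0.10 with spike-in scaling and -1.76 to 1.63 without 1 array (highest without untreated CONT1), and in knockdown clones -1.52 to 0.42 (highest without treated TET1-KD1). *UTF1* in control clones was -0.18 without treated CONT1 and 0.98, then passing the test, without treated CONT2. The cause of these changes was not tested. On the second slide, spike-in signals differed from the first by -0.57 to 0.41 on the log2 scale, and the median response fell with probe GC content in the control clones, from 0.16 and 0.15 in the lowest to -0.52 and -0.55 in the highest of 5 GC classes, with -0.12 to 0 in the knockdown clones.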
